A study of Homo sapiens with 33 samples.

Results

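The transcription factors that set squamous identity were followed in SCC1, SCC6 and SCC25, established head and neck squamous cell carcinoma (HNSCC) cell lines, with and without cetuximab, an antibody that binds the receptor EGFR and blocks its signalling. The 9 members were the rows named TP63, SOX2, KLF4, KLF5, GRHL1, GRHL2, GRHL3, OVOL1 and ZNF750 among the 56470 gene symbols of a bulk RNA-seq count table. All 9 symbols were found. They were listed for the known roles of the factors and not by their counts, though earlier results of these data were known. Cells received 100 nM cetuximab or PBS, and RNA was taken on days 0 to 5 for PBS and on days 1 to 5 for cetuximab. Of the 33 libraries, 1 stands for each line, treatment and day, except that 2 libraries of cetuximab-treated SCC6 carry the label day 2 and none carries day 1. Those are called 2a and 2b here, in their order in the count table. Whether one of them was taken on day 1 could not be settled, so SCC6 values that use the day, by block or in a plot, rest on the label. No other day of a treatment has a second library, so the days of a treatment stood in for replicates, and p-values measure the spread between days. In bulk RNA, fewer cells that express a factor and less of its RNA per cell cannot be told apart.

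Stratified squamous epithelium is built from a proliferating basal layer and from suprabasal cells that stop dividing and form the cornified surface. p63, the product of TP63, holds the basal state and switches on basal keratins and integrins, and SOX2 works beside it in squamous cancers, where the chromosome arm that carries both genes is often gained. KLF4 and KLF5 are zinc finger factors of epithelial cells, with KLF4 tied to barrier formation and KLF5 to growth. The grainyhead-like factors GRHL1, GRHL2 and GRHL3 act on genes of desmosomes, cell junctions and the cornified envelope, and OVOL1 and ZNF750 are zinc finger factors of keratinocytes that leave the basal layer. EGFR signalling is known to hold back the differentiation of keratinocytes.

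Sequence before the start was at hand for 6 of the 9 members in RefSeq on GRCh38.p14. The windows of 250 bases of TP63, KLF5, GRHL1 and GRHL3 are shown, since these factors moved in different directions under cetuximab. Capitals mark matches to CCNCNCCC on either strand, letters bound by KLF and SP factors, and matches that overlap run together. The windows lie at chr3:189631139-189631388 for TP63, chr13:73058755-73059004 for KLF5, chr2:9951443-9951692 for GRHL1 and chr1:24319107-24319356 for GRHL3, all on the plus strand.
TP63: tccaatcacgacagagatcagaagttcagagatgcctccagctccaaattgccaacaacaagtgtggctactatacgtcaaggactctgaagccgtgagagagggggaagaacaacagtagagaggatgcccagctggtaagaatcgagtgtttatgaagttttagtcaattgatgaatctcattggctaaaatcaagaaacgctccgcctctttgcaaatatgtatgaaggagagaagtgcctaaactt
KLF5: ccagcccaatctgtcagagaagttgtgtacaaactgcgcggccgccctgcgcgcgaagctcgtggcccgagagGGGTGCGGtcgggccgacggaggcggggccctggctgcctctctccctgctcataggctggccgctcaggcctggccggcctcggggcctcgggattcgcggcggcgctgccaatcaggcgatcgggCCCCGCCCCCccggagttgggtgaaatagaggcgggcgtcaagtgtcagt
GRHL1: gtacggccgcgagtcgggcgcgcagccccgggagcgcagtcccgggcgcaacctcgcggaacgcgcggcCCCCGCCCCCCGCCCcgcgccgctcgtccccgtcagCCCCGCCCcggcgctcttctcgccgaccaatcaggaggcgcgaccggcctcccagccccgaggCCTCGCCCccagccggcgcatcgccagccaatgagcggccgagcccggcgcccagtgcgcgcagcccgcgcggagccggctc
GRHL3: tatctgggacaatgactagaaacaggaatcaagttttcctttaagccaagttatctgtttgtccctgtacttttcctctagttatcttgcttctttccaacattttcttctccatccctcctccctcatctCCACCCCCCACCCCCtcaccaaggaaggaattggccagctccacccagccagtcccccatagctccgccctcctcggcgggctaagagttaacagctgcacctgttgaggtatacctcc
The window of TP63 held 0 matches, those of KLF5 and GRHL3 held 3 each and that of GRHL1 held 5, while 53.4% of 35116 windows of the same length held at least 1. None of the 4 windows matched TGANTCA (AP-1), AACCGGTT (GRHL), GCCNNNGGC (TFAP2) or CATTCCT (TEAD), which were found in 6.57%, 0.117%, 19.8% and 3.9% of windows. KLF5 and GRHL3 have another window in RefSeq, not shown. That of KLF5 held 0 matches to CCNCNCCC, and that of GRHL3 held 0 and 1 to GCCNNNGGC. The choice between windows was made after matches were counted. The TP63 window lies before the start of the long isoforms, and counts per gene do not separate these from the shorter isoforms that start inside the gene. A match is a run of letters and does not show binding.

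Library totals ranged from 28508539 to 80727185 counts. Codes in the sample titles begin with 5 different strings, read here as flow cells and called A to E. The titles do not say that these strings are flow cells. SCC1 cetuximab shared flow cell C with PBS of day 5, while PBS of days 0 to 4 was on flow cell B. In SCC6, PBS of days 2 to 5 shared flow cell D with cetuximab 2a, 2b and day 3, PBS of days 0 and 1 was on C and cetuximab of days 4 and 5 on E. SCC25 PBS and cetuximab of days 1 and 2 were on A, and cetuximab of days 3 to 5 on B. All 8 epithelial markers averaged over 1 CPM (counts-per-million) in each line. Over PBS and cetuximab libraries of days 1 to 5 together, the basal keratins KRT5 and KRT14 averaged 7.35 and 4.57 CPM in SCC6. They averaged 1904 and 535 in SCC1 and 5794 and 3478 in SCC25. In SCC1, KRT5 averaged 548 CPM with PBS and 3259 with cetuximab. Summed, the 8 markers were 2639 to 3949 CPM with PBS and 8045 to 13380 with cetuximab in SCC1, 3173 to 5029 and 4147 to 5191 in SCC6, and 13210 to 19370 and 15850 to 19130 in SCC25. Of 10 fibroblast markers, the sums were 62.1 to 80.3 CPM with PBS and 102 to 224 with cetuximab in SCC1, 3.82 to 5.83 and 10.9 to 119 in SCC6, and 181 to 231 and 296 to 469.6 in SCC25. The fibroblast sum thus did not overlap between treatments in any line. With PBS 4 of the 10 averaged over 1 CPM in SCC1, 1 in SCC6 and 9 in SCC25, and with cetuximab 4, 4 and 8 did. Over both treatments together, in SCC1, SCC6 and SCC25 the collagen COL1A1 averaged 36.0, 21.5 and 62.1 CPM, the protease FAP 49.7, 0.501 and 38.7, LUM 0.371, 0.0904 and 56.6 and the receptor PDGFRA 0.115, 0.0668 and 0.977. In SCC6, COL1A1 averaged 3.00 CPM with PBS and 40.0 with cetuximab. The 8 leukocyte and endothelial markers summed to at most 8.43 CPM in any library, with LYZ at 0 in SCC1 with cetuximab and CD3E at 0 in SCC25. The part of these markers in the results was not tested.

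The 3 lines held the factors at very different levels without drug. On GRCh37 the GENCODE annotation places TP63 at chr3:189349178-189615065 (plus strand), SOX2 at chr3:181429713-181432224 (plus strand), KLF4 at chr9:110247133-110252763 (minus strand), KLF5 at chr13:73629114-73651679 (plus strand), GRHL1 at chr2:10091822-10142405 (plus strand), GRHL2 at chr8:102504667-102681954 (plus strand), GRHL3 at chr1:24526048-24690972 (plus strand), OVOL1 at chr11:65554534-65564685 (plus strand) and ZNF750 at chr17:80787310-80797898 (minus strand), all of them protein-coding genes. Levels of different genes are compared per kilobase (kb) of transcript, with the length of the longest protein-coding transcript in that annotation. In SCC25, TP63 led with 129 CPM per kb, followed by KLF5 with 54.4 and KLF4 with 27.5, and GRHL3 came last with 0.0870. In SCC6, KLF5 led with 70.9 CPM per kb, ahead of KLF4 (17.3), GRHL2 (15.2), GRHL1 (10.5) and TP63 (8.07). In SCC1, KLF5 and TP63 lay close together at 25.1 and 22.6 CPM per kb, and SOX2 came last at 0.0377. Neighbouring genes in these orders were not compared by a test.

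**Figure D1:**
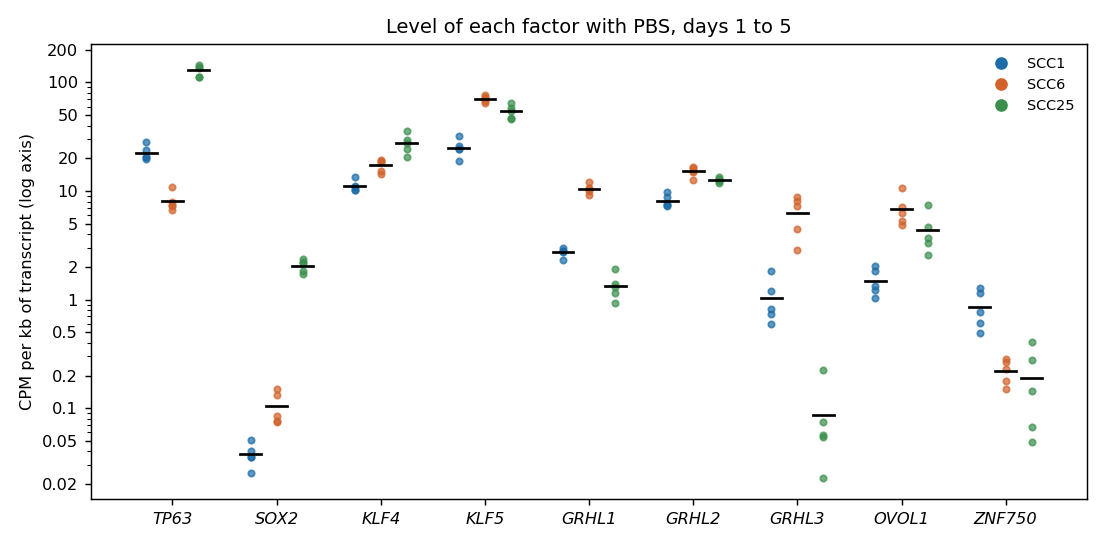
Level of each factor with PBS in CPM per kb of transcript (log axis), with 1 point for each library of days 1 to 5 and a bar at their mean, coloured by line. SCC25 stands highest for TP63 and SOX2 and lowest for GRHL1 and GRHL3, and the lines lie close together for GRHL2.

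Between lines, edgeR's quasi-likelihood test over the 15 PBS libraries of days 1 to 5 called all 9 members for SCC1 against SCC6, where it called 68.9% of all genes, all 9 for SCC1 against SCC25 (68.3% of genes) and 8 for SCC6 against SCC25 (72% of genes), so most genes were called and the members' count says little of them. TP63 was 112 ± 18.2 CPM (SD, n = 5) in SCC1, 39.9 ± 8.37 in SCC6 and 637 ± 79.1 in SCC25. SCC6 lay below SCC25 by 4.00 ± 0.15 (SE) on the log2 scale (adjusted p = 2.09e-13). SOX2 was 5.15 ± 0.687 CPM (SD, n = 5) in SCC25 and near the limit of counting elsewhere, with 3 to 6 counts per library in SCC1 and 5 to 11 in SCC6. It passed the filter of this fit through SCC25, so its call between SCC1 and SCC6 rests on those few counts. SOX2-OT, the long noncoding RNA whose gene contains SOX2 on the same strand, was 0.929 ± 0.155 CPM in SCC25, 0.499 ± 0.0587 in SCC1 and 0.363 ± 0.198 in SCC6 (SD, n = 5). How reads were shared between these overlapping genes is uncertain, and the same holds for ZNF750, which lies inside TBCD on the opposite strand, and for OVOL1, which overlaps OVOL1-AS1.

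The grainyhead-like factors were ordered differently from TP63. GRHL1 was 37.5 ± 3.93 CPM in SCC6, 9.73 ± 0.890 in SCC1 and 4.78 ± 1.31 in SCC25 (SD, n = 5). GRHL3 was 18.0 ± 7.21 CPM in SCC6, 2.95 ± 1.41 in SCC1 and 0.247 ± 0.227 in SCC25, where libraries held 3 to 32 counts. GRHL2 lay closest between lines, at 42.7 ± 5.46, 79.3 ± 8.30 and 66.3 ± 2.96 CPM in SCC1, SCC6 and SCC25. ZNF750 was highest in SCC1, at 2.71 ± 1.07 CPM, and its levels of 0.698 ± 0.178 in SCC6 and 0.595 ± 0.477 in SCC25 did not differ beyond their spread (adjusted p = 0.687). OVOL1, at 20.5 ± 6.97 CPM in SCC6 and 13.0 ± 5.65 in SCC25, was called between these lines by a small margin (adjusted p = 0.0467), and the call was lost without SCC1 of day 2, 3 or 4, SCC6 of day 1, 2 or 3 or SCC25 of day 1, 2, 3 or 4, over differences of 0.44 to 0.94 in all 15 fits. Without a filter on low counts OVOL1 (adjusted p = 0.149) and GRHL2 (adjusted p = 0.074) lost their calls between SCC6 and SCC25, which left 6 members.

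TP63 rose and most of the other factors fell under cetuximab in SCC6. Of 8 members tested, 2 rose and 5 fell, where 15.5% of all genes rose and 14.5% fell. The median log2 fold change of the tested members was -0.91, against 0.0039 over all genes tested. Cetuximab and PBS libraries of days 1 to 5 did not overlap for 6 of the 9 members, against 19.1% of genes tested.

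TP63 with PBS was 36.2, 33.1, 36.5, 39.3 and 54.3 CPM on days 1 to 5, and with cetuximab it was 80.9, 74.6, 90.0, 99.7 and 123 in 2a, 2b and on days 3 to 5, the order kept below. Every cetuximab library lay above every PBS library, with a log2 fold change of 1.21 ± 0.16 (SE, adjusted p = 0.00025). GRHL2, which sustains E-cadherin and other junction genes, was 87.1, 78.7, 84.6, 80.2 and 65.7 CPM with PBS and 144, 121, 111, 113 and 100.2 with cetuximab. It rose by 0.55 ± 0.12 (adjusted p = 0.00417), again without overlap.

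The other grainyhead-like factors went the opposite way from GRHL2. GRHL1, a factor of desmosome genes, was 38.3, 43.4, 37.2, 35.6 and 32.8 CPM with PBS and 23.2, 20.7, 16.4, 12.5 and 11.2 with cetuximab. It fell by 1.18 ± 0.19 on the log2 scale (adjusted p = 0.00101), with no overlap between the treatments. GRHL3, needed for the epidermal barrier, was 22.9, 25.2, 20.8, 12.7 and 8.17 CPM with PBS and 8.29, 4.50, 2.50, 1.12 and 0.774 with cetuximab. It fell by 2.44 ± 0.58 (adjusted p = 0.00844). The treatments overlapped for GRHL3, since PBS of day 5 lay under cetuximab 2a, and the call was lost without a filter on low counts (adjusted p = 0.056).

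KLF5 was 214, 248, 258, 242 and 226 CPM with PBS and 139, 151, 158, 118 and 116 with cetuximab. It fell by 0.82 ± 0.11 on the log2 scale (adjusted p = 0.000223), without overlap. OVOL1 was 32.1, 21.1, 18.8, 15.7 and 14.7 CPM with PBS and 12.7, 10.2, 8.92, 10.4 and 9.92 with cetuximab, and it fell by 0.99 ± 0.20 (adjusted p = 0.00395). All OVOL1 libraries with cetuximab lay below all those with PBS, though the PBS series itself declined toward them. ZNF750, which promotes late differentiation genes, had 13 to 27 counts per library with PBS and 2 to 13 with cetuximab, or 0.476 to 0.888 against 0.0430 to 0.321 CPM. It fell by 2.14 ± 0.46 (adjusted p = 0.00495), without overlap. KLF4 overlapped between treatments and changed by -0.33 ± 0.13 (adjusted p = 0.0778), and was called with the day as a block, at -0.40 ± 0.12 (adjusted p = 0.028), with the GC trend removed, at -0.48 ± 0.17 (adjusted p = 0.0384), and without PBS of day 1, at -0.40 ± 0.13 (adjusted p = 0.0325). SOX2, with 5 to 11 counts per library with PBS and 7 to 19 with cetuximab, was too low to be tested. With a covariate for the flow cell, 7 members were called, with TP63 at 0.99 ± 0.15, GRHL3 at -1.74 ± 0.51 and ZNF750 at -1.60 ± 0.50.

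**Figure D2:**
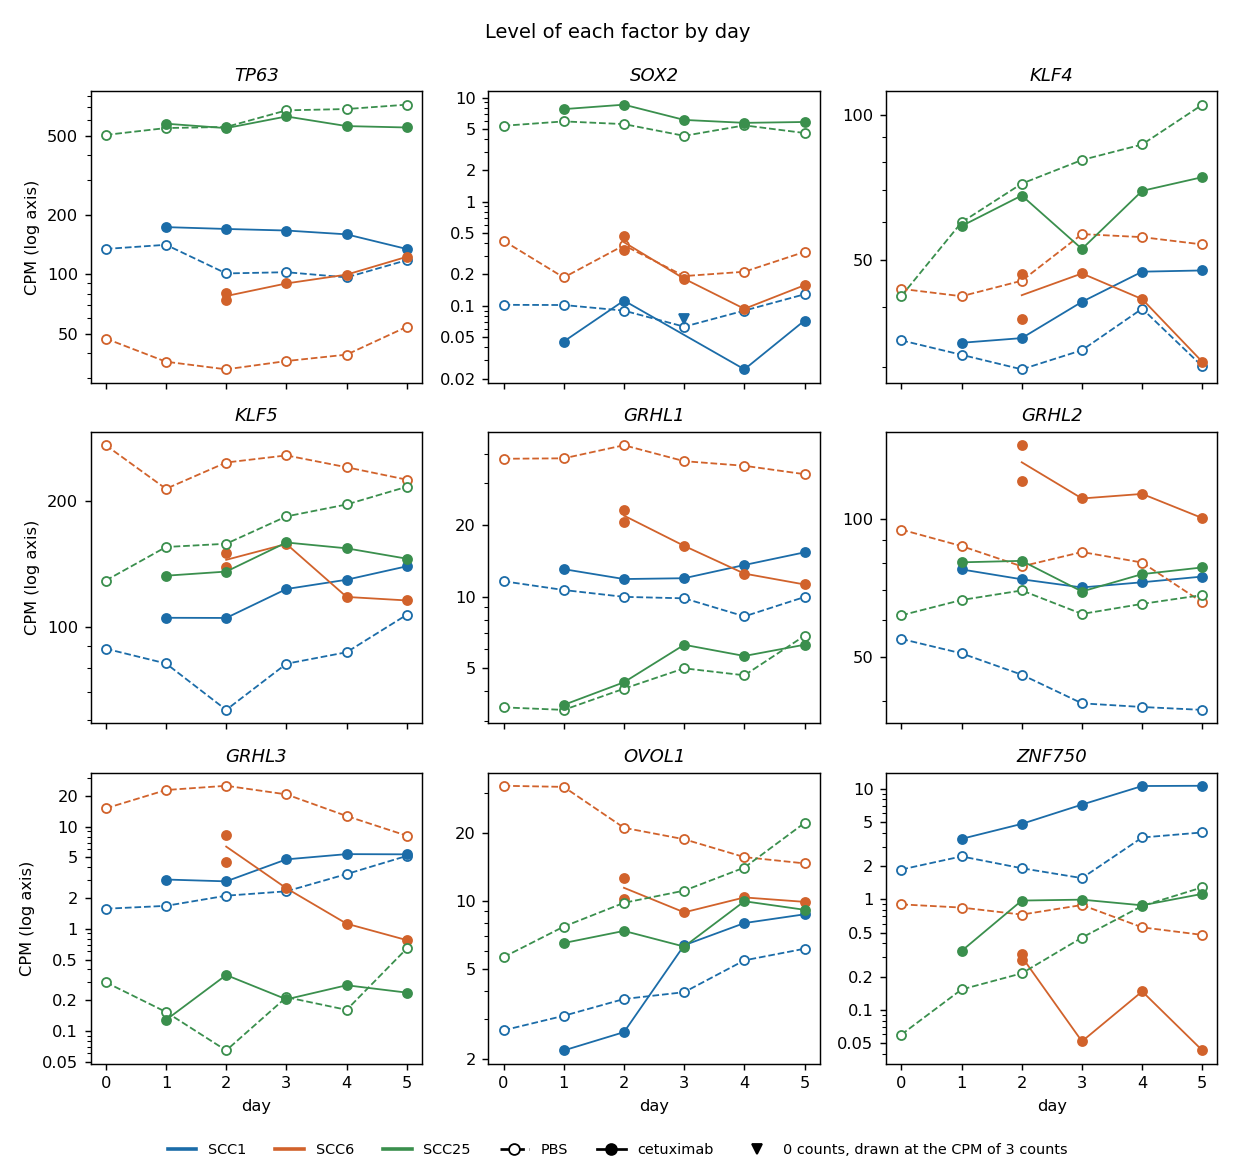
CPM (log axis) of each factor against the day, coloured by line, with open points and dashed lines for PBS and filled points and solid lines for cetuximab. Lines join the mean of each day, and the triangle marks the library with 0 SOX2 counts, drawn at the CPM of 3 counts and left out of the line. In SCC6 the filled points lie above the open ones for TP63 and GRHL2 and below them for KLF5, GRHL1, OVOL1 and ZNF750.

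In SCC1 the factors that changed all rose. Of 8 members tested, 6 rose and 0 fell, where 22.5% of all genes rose and 22% fell, and the median log2 fold change was 0.53 against 0.021 over all genes. GRHL2 was 50.9, 45.7, 39.6, 38.9 and 38.3 CPM with PBS on days 1 to 5 and 77.5, 73.8, 70.8, 72.7 and 74.8 with cetuximab, a rise of 0.80 ± 0.080 (SE, adjusted p = 6.46e-06). GRHL1 was 10.7, 9.97, 9.83, 8.25 and 9.96 CPM with PBS and 13.0, 11.9, 11.9, 13.6 and 15.4 with cetuximab, and it rose by 0.44 ± 0.097 (adjusted p = 0.00216). For these 2 of the 9 members the treatments did not overlap, against 31.3% of genes tested.

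The other factors that rose had overlapping libraries. TP63 was 141, 101, 103, 96.6 and 118 CPM with PBS and 173, 169.7, 167, 159 and 134 with cetuximab, with a log2 fold change of 0.53 ± 0.11 (adjusted p = 0.0014). KLF5 was 81.8, 63.3, 81.7, 87.0 and 107 CPM with PBS and 105, 105, 123, 129.9 and 139.9 with cetuximab, with a log2 fold change of 0.53 ± 0.13 (adjusted p = 0.00495). Each cetuximab library of both genes lay above the PBS library of its day. ZNF750 gave the largest change of the members tested in SCC1, from 2.44, 1.91, 1.55, 3.62 and 4.02 CPM with PBS to 3.52, 4.80, 7.18, 10.6 and 10.6 with cetuximab, or 1.45 ± 0.37 (adjusted p = 0.00858). KLF4 was 31.9, 29.7, 32.6, 39.7 and 30.2 CPM with PBS and 33.7, 34.5, 41.0, 47.3 and 47.6 with cetuximab, and it rose by 0.33 ± 0.11 (adjusted p = 0.0331).

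GRHL3 and OVOL1 were not called in SCC1. GRHL3 was 1.68, 2.11, 2.33, 3.44 and 5.18 CPM with PBS and 3.04, 2.92, 4.79, 5.39 and 5.37 with cetuximab, a log2 fold change of 0.55 ± 0.30 (adjusted p = 0.162). With the day as a block it was 0.61 ± 0.15 (adjusted p = 0.00872), and without PBS of day 5 it was 0.84 ± 0.25 (adjusted p = 0.017). OVOL1 was 3.10, 3.68, 3.95, 5.46 and 6.15 CPM with PBS and 2.18, 2.63, 6.38, 7.99 and 8.74 with cetuximab, a log2 fold change of 0.33 ± 0.40 (adjusted p = 0.535). Its cetuximab libraries lay below PBS on days 1 and 2 and above it on days 3 to 5. SOX2 had 0 to 6 counts per library and was not tested, and its 0 counts on day 3 of cetuximab allow a level of up to 0.0753 CPM, the value of 3 counts, for counting error alone.

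The SCC1 calls moved with the flow cell. Once it entered as a covariate, which leaves PBS of day 5 as the 1 control that shares a flow cell with cetuximab, 1 member was called in place of 6. That was GRHL2, at 0.96 ± 0.14 (adjusted p = 0.000806). TP63 was then 0.46 ± 0.20 (adjusted p = 0.122), KLF4 0.45 ± 0.21 (adjusted p = 0.145), KLF5 0.19 ± 0.18 (adjusted p = 0.495), GRHL1 0.42 ± 0.17 (adjusted p = 0.104) and ZNF750 0.88 ± 0.64 (adjusted p = 0.363). KLF4 also lost its call without a filter on low counts (adjusted p = 0.0785), with the GC trend removed (adjusted p = 0.0576) and when cetuximab of day 3, 4 or 5 or PBS of day 1, 2, 3 or 5 was left out, with log2 fold changes of 0.25 to 0.40 over the 10 fits.

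**Figure D3:**
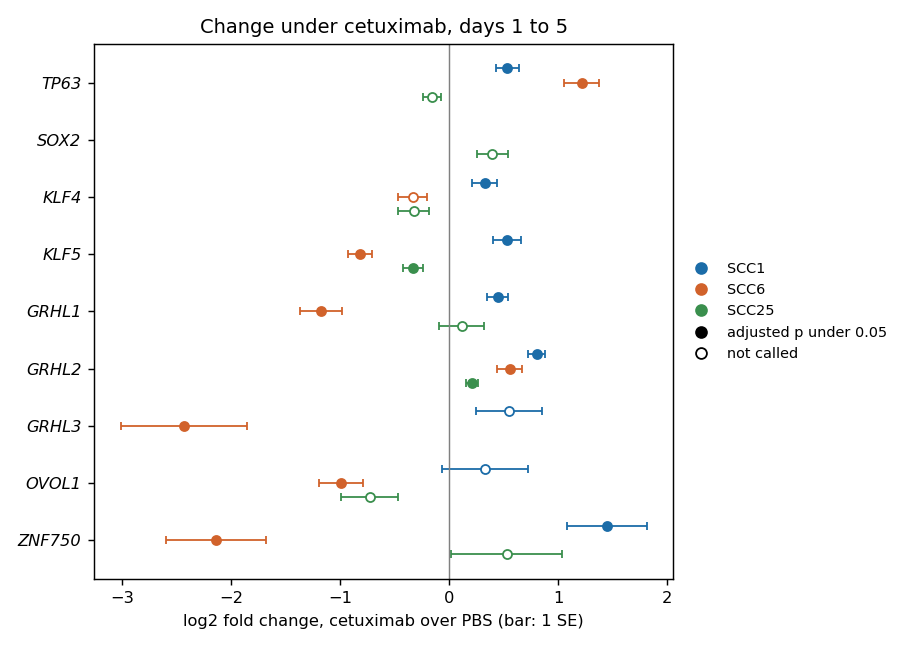
Log2 fold change of each factor, cetuximab over PBS on days 1 to 5, with a bar of 1 SE, coloured by line. Points are filled at an adjusted p under 0.05, and a factor with too few counts in a line has no point. GRHL2 lies to the right in all 3 lines, while KLF5, GRHL1 and ZNF750 are filled on both sides of 0, to the right for SCC1 and to the left for SCC6.

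In SCC25 the count of members called lay near the share of all genes, and so says little of them. Fewest genes were called in this line as well, 3474 against 8005 in SCC1 and 5226 in SCC6. Of 8 members tested, 1 rose and 1 fell, where 8.72% of all genes rose and 9.47% fell, and the median log2 fold change was -0.022 against 0.0062 over all genes. GRHL2 rose by 0.21 ± 0.058 (adjusted p = 0.026), from 66.5, 69.8, 62.0, 65.2 and 68.2 CPM with PBS to 80.3, 80.9, 69.4, 75.7 and 78.3 with cetuximab. KLF5 was 156, 158, 184, 197 and 217 CPM with PBS and 133, 136, 159, 154 and 146 with cetuximab, and it fell by 0.33 ± 0.091 (adjusted p = 0.0262). The treatments overlapped for both genes, and 0 of the 9 members were free of overlap, against 14.8% of genes tested. For KLF5, PBS of day 0 was 129 CPM, below every cetuximab library, and the PBS series rose from there.

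These calls were narrow. KLF5 was not called without cetuximab of day 1, 2 or 5 or without PBS of day 3, 4 or 5, nor with day 0 added to PBS, at -0.24 ± 0.12 (adjusted p = 0.163). GRHL2 was not called without cetuximab of day 4 or PBS of day 3 or 4, and lost its call without a filter on low counts (adjusted p = 0.058). With the day as a block 5 members were called, and these were KLF5 at -0.32 ± 0.059 (adjusted p = 0.00497), GRHL2 at 0.21 ± 0.040 (adjusted p = 0.00578), SOX2 at 0.39 ± 0.095 (adjusted p = 0.0177), KLF4 at -0.31 ± 0.091 (adjusted p = 0.0401) and OVOL1 at -0.66 ± 0.15 (adjusted p = 0.0143). SOX2 was 5.91, 5.57, 4.29, 5.41 and 4.57 CPM with PBS and 7.75, 8.56, 6.11, 5.72 and 5.83 with cetuximab, higher on each of the 5 days, with 0.40 ± 0.14 (adjusted p = 0.0664) without the block. SOX2 was also called by DESeq2 (adjusted p = 0.0358), with day 0 added to PBS (adjusted p = 0.0435), with the GC trend removed (adjusted p = 0.0385) and without cetuximab of day 3 (adjusted p = 0.0439). With a covariate for the flow cell it was called at 0.66 ± 0.13 (adjusted p = 0.0111). That covariate leaves cetuximab of days 1 and 2, where SOX2 was highest, as the treated libraries that share a flow cell with PBS. Without PBS of day 1, KLF4, at -0.41 ± 0.12 (adjusted p = 0.0466), and OVOL1, at -0.86 ± 0.24 (adjusted p = 0.0378), were called. OVOL1 was 7.71, 9.83, 11.1, 14.1 and 22.2 CPM with PBS and 6.52, 7.38, 6.29, 9.98 and 9.15 with cetuximab, lower on each of the 5 days, with -0.73 ± 0.26 (adjusted p = 0.0751) without the block, and DESeq2 called it at -0.73 ± 0.24 (adjusted p = 0.0159). PBS of day 0 lay below every cetuximab library for OVOL1 (5.64 CPM) and for KLF4 (42.1 CPM, against 52.8 or more with cetuximab). TP63, the highest member per kb in this line, was 549 to 721 CPM with PBS and 549 to 629 with cetuximab, a log2 fold change of -0.16 ± 0.080 (adjusted p = 0.195). With the GC trend removed TP63 was called, at -0.22 ± 0.072 (adjusted p = 0.0296). KLF4 was at -0.33 ± 0.14 (adjusted p = 0.128), GRHL1 at 0.11 ± 0.20 (adjusted p = 0.744) and ZNF750 at 0.53 ± 0.51 (adjusted p = 0.513), and GRHL3, with 6 to 17 counts per cetuximab library, was not tested.

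The changes of the lines were then compared with each other in a single model of the 30 libraries from days 1 to 5, which held no term for the flow cell. Between SCC1 and SCC6, 7 of 9 members differed in their change, where 19.2% of all genes did. The difference, SCC1 minus SCC6 on the log2 scale, was 3.58 ± 0.71 (adjusted p = 0.000469) for ZNF750, 2.97 ± 0.66 (adjusted p = 0.00168) for GRHL3, 1.60 ± 0.25 (adjusted p = 2.3e-05) for GRHL1 and 1.32 ± 0.16 (adjusted p = 5.25e-07) for KLF5. For KLF4 it was 0.63 ± 0.19 (adjusted p = 0.0199), lost without SCC6 cetuximab of day 5 (adjusted p = 0.051). For OVOL1 it was 1.29 ± 0.44 (adjusted p = 0.0388), lost without a filter on low counts (adjusted p = 0.12) and without SCC1 cetuximab of day 3, 4 or 5, SCC1 PBS of day 1, 2 or 3, SCC6 cetuximab 2b or of day 3, 4 or 5, or SCC6 PBS of day 1 or 2. TP63 was the called member with the opposite sign, at -0.71 ± 0.18 (adjusted p = 0.00511), its rise being larger in SCC6. GRHL2 differed by 0.22 ± 0.12 (adjusted p = 0.221). SOX2 had too few counts for a test of cetuximab within SCC1 or SCC6 and entered this model through its counts in SCC25. Its difference of -0.66 ± 0.65 (adjusted p = 0.536) thus rests on libraries with few counts.

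Between SCC1 and SCC25, 4 members differed, where 8.5% of all genes did. KLF5 differed by 0.84 ± 0.16 (adjusted p = 0.000662), GRHL2 by 0.58 ± 0.12 (adjusted p = 0.0019), TP63 by 0.67 ± 0.18 (adjusted p = 0.0139) and KLF4 by 0.64 ± 0.19 (adjusted p = 0.0355), all with the higher change in SCC1. KLF4 lost its call without a filter on low counts (adjusted p = 0.0503) and without SCC1 cetuximab of day 3, 4 or 5, SCC1 PBS of day 1, 2, 3 or 5, SCC25 cetuximab of day 1 or 3, or SCC25 PBS of day 3, 4 or 5, where it ranged over 0.53 to 0.74 in all 30 fits. OVOL1, at 1.04 ± 0.44 (adjusted p = 0.167), was called with the day as a block, at 0.85 ± 0.25 (adjusted p = 0.0288).

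Between SCC6 and SCC25, 5 members differed, where 17.5% of all genes did. GRHL3 had too few counts in SCC25 for a test of cetuximab there, and entered this model through its counts in SCC1 and SCC6. The difference, SCC6 minus SCC25, was 1.38 ± 0.18 (adjusted p = 2.79e-06) for TP63, -1.28 ± 0.26 (adjusted p = 0.000658) for GRHL1 and -2.68 ± 0.75 (adjusted p = 0.0131) for ZNF750. KLF5, at -0.48 ± 0.16 (adjusted p = 0.0386), lost its call without a filter on low counts (adjusted p = 0.0702) and without SCC6 cetuximab of day 4 or 5, SCC6 PBS of day 2, 3 or 4, SCC25 cetuximab of day 3, 4 or 5, or SCC25 PBS of day 1, 2 or 3. GRHL2, at 0.36 ± 0.12 (adjusted p = 0.0414), lost its call with the size factors of DESeq2 (adjusted p = 0.0565) and without SCC6 cetuximab 2a, SCC6 PBS of day 2 or 5, SCC25 cetuximab of day 3, 4 or 5, or SCC25 PBS of day 2 or 5. GRHL3 was at -2.38 ± 0.88 (adjusted p = 0.0621), and was called with the day as a block, at -2.93 ± 0.60 (adjusted p = 0.00152), by DESeq2, at -2.37 ± 0.79 (adjusted p = 0.0184), and without SCC6 cetuximab 2a, SCC6 PBS of day 5 or SCC25 PBS of day 5, over -3.14 to -2.10 in all 30 fits.

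The factors also moved with time in culture without drug, and in SCC25 most of them rose. Over PBS days 0 to 5, 6 of 9 members rose and 0 fell in SCC25, where 7.22% of all genes rose and 3.82% fell. ZNF750 was 0.0598, 0.153, 0.214, 0.451, 0.872 and 1.28 CPM on days 0 to 5, a slope of 0.84 ± 0.091 log2 units per day (SE, adjusted p = 2.71e-05). These libraries held 3, 8, 10, 19, 38 and 64 counts of ZNF750, so its slope starts near the limit of counting. OVOL1 was 5.64, 7.71, 9.83, 11.1, 14.1 and 22.2 CPM, with 0.37 ± 0.030 (adjusted p = 1.7e-06) per day. KLF4 was 42.1, 59.9, 72.0, 80.6, 86.8 and 105 CPM, with 0.24 ± 0.023 (adjusted p = 1.24e-05) per day. All 3 were higher on every day than on the day before. KLF5 (0.14 ± 0.017 per day, adjusted p = 7.52e-05), GRHL1 (0.20 ± 0.038, adjusted p = 0.00358) and TP63 (0.11 ± 0.018, adjusted p = 0.00121) rose less steeply. GRHL1 lost its call without PBS of day 5, at 0.15 ± 0.049 (adjusted p = 0.0918). GRHL2 was at 0.016 ± 0.020, SOX2 at -0.052 ± 0.038 and GRHL3 at 0.26 ± 0.16 per day, and these were not called.

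**Figure D4:**
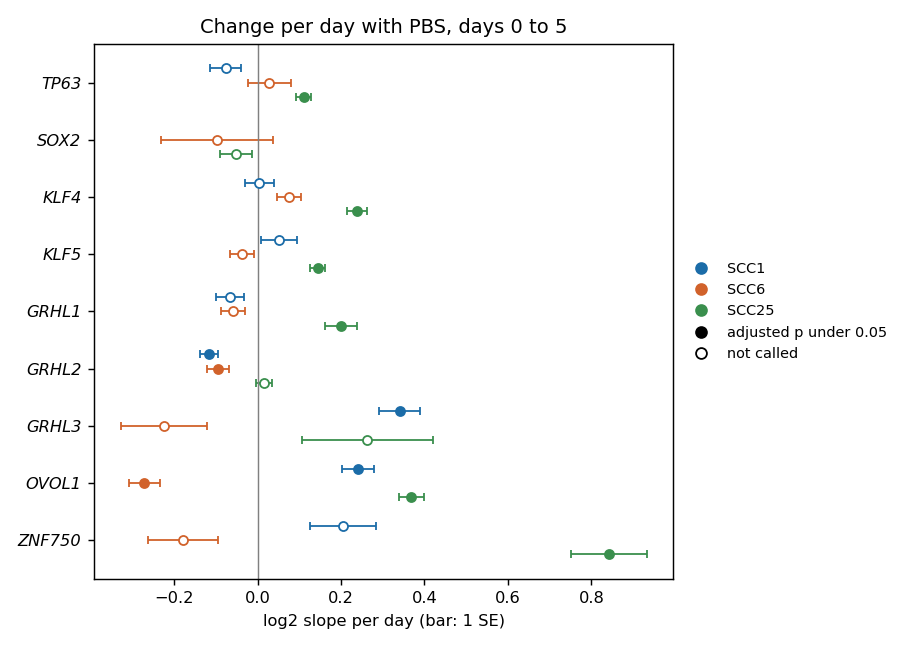
Slope of each factor in log2 units per day over PBS days 0 to 5, with a bar of 1 SE, coloured by line and filled at an adjusted p under 0.05. In SCC25 ZNF750 has the steepest slope, at 0.84 per day from 3 counts on day 0. OVOL1 is filled in all 3 lines, rising in SCC1 and SCC25 and falling in SCC6, where its call is lost with a covariate for the flow cell.

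In SCC1, 2 members rose and 1 fell with time, where 1.83% of all genes rose and 0.856% fell. GRHL3 was 1.57, 1.68, 2.11, 2.33, 3.44 and 5.18 CPM on days 0 to 5, with 0.34 ± 0.050 (adjusted p = 0.0183) per day. OVOL1 was 2.68, 3.10, 3.68, 3.95, 5.46 and 6.15 CPM, with 0.24 ± 0.038 (adjusted p = 0.0246) per day. GRHL2 was 54.7, 50.9, 45.7, 39.6, 38.9 and 38.3 CPM, and it fell by 0.12 ± 0.021 (adjusted p = 0.0331) per day. Without PBS of day 0, 1 or 4 none of the 3 was called, and GRHL2 was also lost without day 2 or 3, with slopes of 0.27 to 0.40, 0.23 to 0.25 and -0.14 to -0.11 for GRHL3, OVOL1 and GRHL2 over the 6 fits. TP63 in SCC1, at -0.076 ± 0.037 (adjusted p = 0.292), was called with a covariate for the flow cell, at -0.15 ± 0.033 (adjusted p = 0.0304), and without day 5, at -0.15 ± 0.033 (adjusted p = 0.0289). In SCC6, 0 members rose and 2 fell, where 13.8% of all genes rose and 18.6% fell. The count of members that fell lay near the share of all genes and so says little of them. OVOL1 fell there by 0.27 ± 0.037 (adjusted p = 0.00145) per day and GRHL2 by 0.095 ± 0.027 (adjusted p = 0.0241). With a covariate for the flow cell, 0 members were called, with OVOL1 at -0.17 ± 0.047 (adjusted p = 0.0707) and GRHL2 at -0.087 ± 0.042 (adjusted p = 0.288), and GRHL2 was also lost without PBS of day 0 or 5. GRHL3 was 15.2, 22.9, 25.2, 20.8, 12.7 and 8.17 CPM on days 0 to 5 in SCC6, with -0.22 ± 0.10 (adjusted p = 0.137) per day, and its decline was called by DESeq2, at -0.23 ± 0.079 (adjusted p = 0.0142), and without day 0, at -0.41 ± 0.075 (adjusted p = 0.0197).

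Whether the change under cetuximab differed between days 1 to 3 and days 4 and 5 was tested within each line, with no term for the flow cell. In SCC6, cetuximab of days 4 and 5 was on flow cell E and the earlier cetuximab libraries were on D. A difference between periods cannot be told apart there from one between flow cells. By edgeR, 0 members were called in SCC1, SCC6 and SCC25, and 0% of all genes in each. At an unadjusted p under 0.05 there were 1, 1 and 2 members of the 8, 9 and 9 tested. Over all genes tested these were 1394 of 19660, 5596 of 19150 and 588 of 20740. DESeq2 called 0 members in each line and 28, 2821 and 2 genes. GRHL1 in SCC1 differed by 0.41 ± 0.17 (adjusted p = 0.696) and GRHL1 in SCC6 by -0.52 ± 0.22 (adjusted p = 0.151). In SCC25, TP63 differed by -0.33 ± 0.14 and ZNF750 by -1.64 ± 0.68 (adjusted p = 1 for both). GRHL3 in SCC6 differed by -1.25 ± 0.59 (adjusted p = 0.188), and was called without a filter on low counts, at -1.23 ± 0.32 (adjusted p = 0.00253). These genes were picked after their values were seen.

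Other genes of the squamous programme were taken from lists of known genes, and up to 2 called genes of each list are named, those with the largest changes. Among 32 other squamous transcription factors, 8 rose and 8 fell of 27 tested in SCC1, 4 rose and 8 fell of 28 in SCC6, and 1 rose and 2 fell of 30 in SCC25. Their median log2 fold changes were 0.16, -0.12 and -0.036, beside 0.021, 0.0039 and 0.0062 over all genes. SOX9, a factor of hair follicle and progenitor cells, went from 50.6 ± 13.2 to 7.14 ± 1.26 CPM in SCC1 (SD, n = 5), where it fell by 2.81 ± 0.20 (adjusted p = 3.05e-06), and it fell by 0.90 ± 0.087 (adjusted p = 7.79e-05) in SCC25. TFAP2C, of the AP-2 family, rose by 1.10 ± 0.11 (adjusted p = 7.31e-06) in SCC1. In SCC6, PRDM1, a repressor found in cornifying cells, fell by 3.10 ± 0.37 (adjusted p = 0.000136) and ELF3, an epithelial ETS factor, by 1.27 ± 0.17 (adjusted p = 0.00024). BNC1, basonuclin 1, fell by 0.24 ± 0.047 (adjusted p = 0.0045) in SCC25.

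Of 39 genes of suprabasal differentiation, 8 rose and 3 fell of 20 tested in SCC1, 2 rose and 9 fell of 22 in SCC6, and 2 rose and 3 fell of 24 in SCC25, with medians of 0.57, -0.34 and 0.14. KRT13, a keratin of the suprabasal oral mucosa, went from 3.40 ± 2.67 to 166 ± 111 CPM in SCC1 (SD, n = 5), a log2 fold change of 5.63 ± 0.73 (adjusted p = 0.000295). ABCA12, a lipid transporter of the skin barrier, rose there by 1.25 ± 0.18 (adjusted p = 0.000126). In SCC6, SCEL, a protein of the cornified envelope, fell by 1.35 ± 0.25 (adjusted p = 0.00202) and CSTB, a protease inhibitor, by 1.30 ± 0.14 (adjusted p = 5.85e-05). CASP14, a protease of cornification, rose by 1.25 ± 0.34 (adjusted p = 0.0295) in SCC25. With PBS alone, 7 of 25 of these genes rose with time and 0 fell in SCC25, KRT13 by 0.88 ± 0.024 (adjusted p = 8.09e-12) and TGM1, a crosslinking enzyme of the envelope, by 0.60 ± 0.042 (adjusted p = 9.43e-07) per day. Of the basal genes 12 rose and 1 fell with time in SCC25, and 0 rose and 22 fell in SCC6. There COL17A1, a hemidesmosome collagen, fell by 0.57 ± 0.036 (adjusted p = 7.91e-05) per day. Over all genes, 7.22% rose with time in SCC25 and 18.6% fell in SCC6. SCC6 PBS of days 0 and 1 was on flow cell C and that of days 2 to 5 on D. The counts of basal genes come from a fit without a term for this. With that term, all genes called for the SCC6 trend went from 5769 to 716.

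Of 32 basal genes, 16 rose and 10 fell of 31 tested in SCC1, 9 rose and 5 fell of 32 in SCC6, and 5 rose and 9 fell of 32 in SCC25, with medians of 0.22, 0.21 and -0.036. In SCC1, PKP1, a plaque protein of desmosomes, rose by 2.84 ± 0.29 (adjusted p = 5.19e-05) and KRT5 by 2.58 ± 0.38 (adjusted p = 0.000571). In SCC6, the receptor FGFR2 rose by 2.18 ± 0.15 (adjusted p = 6.07e-06) and the cadherin FAT2 by 1.68 ± 0.21 (adjusted p = 0.000179), and in SCC25 KRT17, a keratin, rose by 0.73 ± 0.22 (adjusted p = 0.0382) and FAT2 by 0.58 ± 0.059 (adjusted p = 0.000101).

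Of 21 epithelial genes tied to GRHL or OVOL factors, GRHL2 among them, 10 rose and 3 fell of 21 tested in SCC1. In SCC6 1 rose and 9 fell of 21, and in SCC25 9 rose and 0 fell of 20. The member GRHL2 is counted among the genes that rose in each line, and it is the 1 that rose in SCC6. Medians were 0.22, -0.38 and 0.22. CLDN1, a claudin of tight junctions, rose by 1.30 ± 0.28 (adjusted p = 0.00431) in SCC1 and by 1.27 ± 0.082 (adjusted p = 5.81e-06) in SCC25. CDH1, E-cadherin, rose by 0.98 ± 0.10 (adjusted p = 1.28e-05) in SCC1, and MARVELD3, a tight junction protein, by 0.65 ± 0.10 (adjusted p = 0.00131) in SCC25. OCLN and CGN, also of tight junctions, fell in SCC6 by 1.34 ± 0.26 (adjusted p = 0.00278) and 1.11 ± 0.37 (adjusted p = 0.0401).

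Of 8 mesenchymal regulators and markers, 1 rose and 3 fell of 7 in SCC1, 4 rose and 2 fell of 7 in SCC6 and 1 rose and 2 fell of 8 in SCC25. VIM, the filament vimentin, fell by 3.88 ± 0.35 (adjusted p = 3e-05) in SCC1, where TWIST1, a mesenchymal factor, rose by 0.33 ± 0.089 (adjusted p = 0.00849), and rose by 2.00 ± 0.43 (adjusted p = 0.00513) in SCC6. CDH2, N-cadherin, rose by 2.44 ± 0.15 (adjusted p = 2.99e-06) in SCC6 and by 0.30 ± 0.078 (adjusted p = 0.0187) in SCC25, and the repressor SNAI2 fell by 0.42 ± 0.062 (adjusted p = 0.00094) in SCC25. Among 19 neighbours of SOX2 and TP63 on the long arm of chromosome 3, 4 rose and 4 fell in SCC1, 2 rose and 1 fell in SCC6 and 1 rose and 2 fell in SCC25. LPP, an adhesion protein, rose in SCC1, SCC6 and SCC25 by 0.45 ± 0.055 (adjusted p = 2.83e-05), 0.66 ± 0.14 (adjusted p = 0.00417) and 0.42 ± 0.084 (adjusted p = 0.00526). ECT2, an exchange factor of cell division, fell by 0.48 ± 0.086 (adjusted p = 0.000559) in SCC1, DVL3, of the Wnt pathway, rose by 0.79 ± 0.17 (adjusted p = 0.00484) in SCC6, and EIF4G1, of translation initiation, fell by 0.23 ± 0.065 (adjusted p = 0.0262) in SCC25. Of 16 output genes of ERK, the kinase downstream of EGFR, 0 rose and 12 fell in SCC1 (15 tested), 0 rose and 13 fell in SCC6 and 0 rose and 12 fell in SCC25. EGR1, an immediate early factor, fell in the same order of lines by 3.64 ± 0.35 (adjusted p = 3.79e-05), 4.35 ± 0.24 (adjusted p = 2.99e-06) and 2.44 ± 0.19 (adjusted p = 3.72e-05). PHLDA1 fell by 3.66 ± 0.28 (adjusted p = 8.03e-06) in SCC1, and DUSP5, a phosphatase of ERK, by 2.72 ± 0.22 (adjusted p = 1.34e-05) in SCC6 and 1.34 ± 0.11 (adjusted p = 2.47e-05) in SCC25. Of the fibroblast markers, 5 rose and 1 fell of 6 tested in SCC1, 3 rose and 0 fell of 4 in SCC6 and 6 rose and 1 fell of 10 in SCC25. They were led by the collagen COL1A2 in SCC1 (2.02 ± 0.31), COL1A1 in SCC6 (3.72 ± 0.62) and COL3A1 in SCC25 (1.62 ± 0.23). Of the epithelial markers, 7 rose and 1 fell in SCC1, 2 rose and 2 fell in SCC6 and 2 rose and 0 fell in SCC25, with KRT6A at 2.75 ± 0.43 in SCC1 and -3.54 ± 0.77 in SCC6. None of the leukocyte and endothelial markers tested was called.

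The members moved together to different extents in the 3 lines. Over the 11 libraries of a line, which share treatments and days, Pearson's r of log2 CPM between TP63 and GRHL1 was 0.735, -0.961 and 0.563 in SCC1, SCC6 and SCC25, and between TP63 and KLF5 it was 0.631, -0.925 and 0.907. GRHL1 and GRHL3 gave 0.367, 0.98 and 0.504, and KLF4 and OVOL1 gave 0.682, 0.2 and 0.934. These are descriptions over libraries that are not independent, and no p is given.

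**Figure D5:**
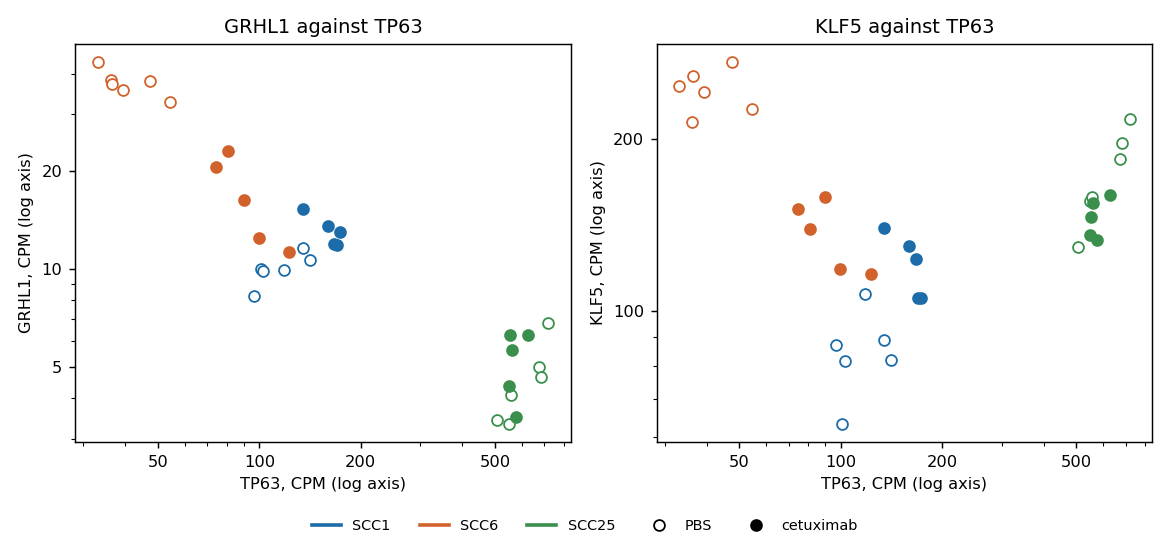
GRHL1 (left) and KLF5 (right) against TP63, in CPM on log axes, with 1 point per library, open for PBS and filled for cetuximab, coloured by line. In SCC6 the filled points lie to the right of and below the open ones in both panels, and in SCC25 KLF5 climbs with TP63.

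Genes whose pattern was most like that of a member were ranked by Pearson's r of log2 CPM over all 33 libraries, after the mean of each line was removed, and genes needed an average log2 CPM of 3 or more to be ranked. GRHL1 was nearest to SLPI (0.932), RAB27B (0.895) and TBC1D4 (0.889), GRHL2 to C9orf3 (0.936), AJUBA (0.909) and KRT5 (0.902), and GRHL3 to KRT6B (0.901) and C1orf116 (0.879). TP63 was nearest to SCARA3 (0.909), KANSL1 (0.903) and ARHGAP35 (0.902), and KLF5 to EMP1 (0.906), OXSR1 (0.903) and IL1RN (0.899). For OVOL1 they were RABGGTA (0.855), NBEAL2 (0.813) and TRIM35 (0.801), and for ZNF750 GRHL1 (0.821) and KRT15 (0.818), GRHL1 itself being a member. KLF4 and SOX2 had lower values, with YBX3 (0.724), ELF3 (0.716) and RPL41 (0.693) for KLF4 and MAP7D3 (0.641), SNX25 (0.632) and DMTF1 (0.607) for SOX2. With days 1 to 5 only and the mean of each treatment removed as well, SLPI stayed first for GRHL1 (0.856) and KRT6B for GRHL3 (0.853). Most of the other genes fell back, as far as place 1247 for KRT5 beside GRHL2 (0.365), 464 for ARHGAP35 beside TP63 (0.484), 372 for IL1RN beside KLF5 (0.606) and 279 for SCARA3 beside TP63 (0.543).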

How the data were processed

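Polyadenylated RNA of the 33 libraries was sequenced from a stranded kit. The authors estimated transcript abundance with Salmon 0.8.2 (submitters' processing notes, which name hg19 and GRCh37), summed it per gene with tximport and deposited 1 table of estimated counts. How the counting used strand is not given in the sources used here. The estimated counts were rounded to whole numbers. Groups came from the labels. The flow cell was read from the start of the code in each sample title, which does not call it one.

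Genes were kept by filterByExpr, scaled by TMM and tested with edgeR 4.0.16 (quasi-likelihood, robust, two-sided) in R 4.3.3, and called at a Benjamini-Hochberg adjusted p under 0.05 over all genes tested. Cetuximab was compared with PBS of days 1 to 5 in each line, these changes between lines and between days 1 to 3 and days 4 and 5, PBS levels between lines, and the slope over PBS days 0 to 5. CPM used TMM factors over all libraries, and log2 CPM a prior count of 2. An interval or limit from counts covers counting error only. On simulated counts edgeR kept to the limit set for false calls. DESeq2 exceeded it where genes were changed in SCC1, and was then judged by a run with no change, so counts of its calls may be too high. Sequences came from RefSeq tables on GRCh38.p14.

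Alternatives were DESeq2 1.42.0, its size factors, no filter, each library left out, the day as a block, day 0 added to the controls, the flow cell as a covariate and removal of the trend with GC content, with 2 more added after the data were seen. For the block, the libraries of a line were paired by the labelled day. Deviations of same-day libraries correlated at 0.104 to 0.383 in SCC1, -0.177 to 0.579 in SCC6 and 0.218 to 0.582 in SCC25. For cetuximab of days 3, 4 and 5 in SCC1, days 4 and 5 in SCC6 and day 1 in SCC25, PBS of another day correlated best. The pairing by day is thus only partly borne out. The members and lists were chosen with earlier results of these data known. All members are reported. From each list the 2 genes with the largest called change and a mean log2 CPM of at least 3 in that line were named, and for each member the 3 genes with the highest r, of which 1 each for GRHL3 and ZNF750 is not reported here. Lists were other squamous factors, differentiation, basal genes, genes tied to GRHL or OVOL, mesenchymal regulators, neighbours on chromosome 3, ERK output and markers of cell types.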

Additional observations from a re-analysis of the deposited data

Results flagged for a closer look

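Of 54 groups of 5 libraries, 1 for each member, line and treatment, 2 held a library that stood apart, where chance sets about 1 in 20 groups apart. GRHL3 in SCC25 with PBS was 0.642 CPM on day 5, against 0.214 in the next highest library, and KLF4 in SCC1 with PBS was 39.7 CPM on day 4, against 32.6 in the next.

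The change under cetuximab differed between lines for several members by the test of the difference itself. SCC1 minus SCC6 gave -0.71 for TP63, 0.63 for KLF4, 1.32 for KLF5, 1.60 for GRHL1, 2.97 for GRHL3, 1.29 for OVOL1 and 3.58 for ZNF750, on the log2 scale. SCC1 minus SCC25 gave 0.67 for TP63, 0.64 for KLF4, 0.84 for KLF5 and 0.58 for GRHL2. SCC6 minus SCC25 gave 1.38 for TP63, -0.48 for KLF5, -1.28 for GRHL1, 0.36 for GRHL2 and -2.68 for ZNF750. SCC1 cetuximab and all but 1 of its controls were on different flow cells, and this was not tested in the differences between lines.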

How the results depend on the processing

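With the flow cell as a covariate, 1 member was called in SCC1 in place of 6 and 0 for the trend in SCC6, and GRHL3 and OVOL1 in SCC1 turned to -0.26 and -0.13, GRHL1 in SCC25 to -0.28 and the slope of KLF5 in SCC1 to -0.0094. In SCC25, where 2 members were called, DESeq2 called 4, the fit without a filter 1, the GC trend removed 4, the day as a block 5 and both of the latter, added after seeing the data, 5. The block gave 7 members in SCC1 and 8 in SCC6, and turned KLF4, SCC6 minus SCC25, to -0.075, as did DESeq2 (-0.018) and its size factors (-0.020). Without a filter 1 member differed between periods in SCC6.

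Leaving out 1 library at a time gave 0 to 4 members in SCC25 (0 without PBS of day 3 or 4), 3 to 5 for SCC6 minus SCC25, 0 to 4 for the trend in SCC1 and 1 to 2 for that in SCC6. Values that changed sign ranged over -0.17 to 0.90 for GRHL3, SCC1 minus SCC25, -0.11 to 0.11 for KLF4, SCC6 minus SCC25, -0.028 to 0.74 for ZNF750, SCC6 against SCC25 with PBS, -0.032 to 0.039 and -0.015 to 0.11 for the slopes of KLF4 and KLF5 in SCC1, -0.070 to 0.13 for TP63 in SCC6, and -0.0028 to 0.022 and -0.17 to 0.60 for GRHL2 and GRHL3 in SCC25. None of these values was called.

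Counts over all genes moved too. The flow cell took them from 8005 to 4171 in SCC1, from 3474 to 1442 in SCC25 and from 5769 to 716 for the trend in SCC6, and the trend in SCC1 from 511 to 1712 (1471 by DESeq2, 890 without a filter). The block took SCC6 from 5226 to 7967 (8145 with GC), and the differences between lines from 4103 to 6625, 1820 to 2979 and 3740 to 7181. In SCC25 GC removal gave 5704, and with the block 7402. Between periods, 0 became 28, 2821 and 2 by DESeq2, 24 and 3366 in SCC1 and SCC6 without a filter, 2662 in SCC6 with the block and 104 in SCC1 with a slope, also added later. Leaving out a library gave 2196 to 4002 for SCC25, 39 to 1639, 1827 to 7178 and 1168 to 2457 for the trends in SCC1, SCC6 and SCC25, and up to 3, 1583 and 81 between periods. The causes were not tested. SOX2 in SCC1 and SCC6 and GRHL3 in SCC25 had too few counts for a test of cetuximab.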
